A study of Mus musculus with 4 samples.

Results

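The genes described here are the 6 testis-specific serine kinase genes of the mouse, Tssk1 to Tssk6, and Tsks, which encodes a substrate of these kinases. They were taken by name: each probe set with a single platform gene symbol that is one of these names, or an alias of one, was included. This gave 10 probe sets for 7 genes, of 18193 genes that the array names by 1 symbol. RNA of whole testes was measured on 4 Affymetrix arrays. Of these, 2 came from wild type mice and 2 from mice labelled Taf7l knockout. All mice were 8 weeks old and on the C57BL/6J strain, and the series design calls them littermates. The labels name no other allele or agent, and the sources used here do not say which part of Taf7l was deleted.

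Testis-specific serine kinases are a small branch of the kinase tree, close to the AMP-activated kinase and its relatives. They are made almost only in the male germ line, mostly after meiosis, when round spermatids reshape their nucleus, build an acrosome and grow a flagellum. Tssk1 and Tssk2 bind and phosphorylate Tsks, and mice that lack this pair of kinases are infertile. Tssk6 is needed for the packing of sperm chromatin. Taf7l, an X-linked gene, encodes a germ cell form of a subunit of TFIID, the complex that places RNA polymerase II at promoters.

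Tssk1 and Tssk2 lie side by side on chromosome 16, with no other gene between them in the RefSeq annotation. The other members are on chromosomes 4 (Tssk3), 14 (Tssk4), 15 (Tssk5), 8 (Tssk6) and 7 (Tsks). The RefSeq promoter table (GRCm38.p6) held a window for 6 of the 7 genes. Tssk5 had none. The 100 bases before the annotated start are shown for the neighbouring pair, for Tssk3, the member that passed the test below, and for Tsks, the member with the largest difference. Capitals mark TGACTTCA on either strand.
Tssk1 (chr16:17894103-17894202, + strand): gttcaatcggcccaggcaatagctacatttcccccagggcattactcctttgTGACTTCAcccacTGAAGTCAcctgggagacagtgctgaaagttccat
Tssk2 (chr16:17898537-17898636, + strand): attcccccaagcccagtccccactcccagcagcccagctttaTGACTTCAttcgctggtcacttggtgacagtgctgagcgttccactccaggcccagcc
Tssk3 (chr4:129490771-129490870, - strand): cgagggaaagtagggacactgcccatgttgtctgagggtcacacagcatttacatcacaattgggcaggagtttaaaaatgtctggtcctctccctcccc
Tsks (chr7:44943140-44943239, + strand): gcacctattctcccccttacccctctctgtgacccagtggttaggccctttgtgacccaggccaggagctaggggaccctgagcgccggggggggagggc
Each full window, from 250 bases before to 50 bases after the start, was searched on both strands for TATAAA (the TATA box), TGACGTCA (the full cAMP response element), TGACG (the short form of that element, which also lies within it) and TGACTTCA. The last was added after these windows had been read. It differs from TGACGTCA by 1 letter. None of the 6 windows held TATAAA or TGACGTCA, which were found in 13.6% and 1.79% of all 32851 windows searched. TGACTTCA was found in the windows of Tssk1 and Tssk2 and in 1.52% of the 32851 windows. It began 48 bases before the Tssk1 start, with a second copy on the other strand 35 bases before it, and 58 bases before the Tssk2 start. Among the members TGACG was found only in the window of Tssk6, 73 bases before the start, and it was in 20.8% of the 32851 windows. The longest run shared by the Tssk1 and Tssk2 windows was GACAGTGCTGA, 11 bases, which began 20 and 33 bases before the starts, and the other 14 pairs of windows shared runs of 7 to 10 bases. These matches describe the letters in the windows and nothing more.

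Taf7l itself had signals of 829 and 818 in wild type and 80.6 and 72.5 in the knockout, a 10.8-fold lower mean in the arrays labelled knockout. Genotypes were compared with limma over the 22519 probe sets whose mean signal reached 45.8, the median of all mouse probe sets. Calls were made at a Benjamini-Hochberg adjusted p under 0.05. They numbered 312, or 1.39% of those tested, and 212 of them (0.941%) were lower in the knockout. After quantile normalization the split was 57 lower of 148 called. Precision is limited by the small number of arrays. The second knockout array has the number 2 in its title but 1 in its description, so the p-values may reflect technical spread rather than spread between animals.

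Of the 10 member probe sets, 7 reached the signal filter, and they cover 6 of the 7 genes. All 6 genes had lower signals on both knockout arrays than on both wild type arrays, at the brightest probe set of each. Over all 12241 genes measured this way, 38.7% did so, and 60.7% had a lower mean in the knockout. After quantile normalization the members' count was again 6 of 6, against 28.8% of all genes with groups apart in this direction and 50.4% with a lower mean. With median centring 62.7% of all genes had a lower mean. Only Tssk3 passed the test over all probe sets, with a signal 1.29-fold lower in the knockout. At their brightest probe set 1.2% of all genes were called lower and 0.539% higher. At the looser threshold of an adjusted p under 0.10, 4 member probe sets were lower (those of Tssk1, Tssk3, Tssk6 and Tsks), where 8.61% of all tested probe sets were. The median log2 difference over the 6 genes, knockout minus wild type, was −0.33, where the median over all measured genes was −0.05.

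**Figure D1:**
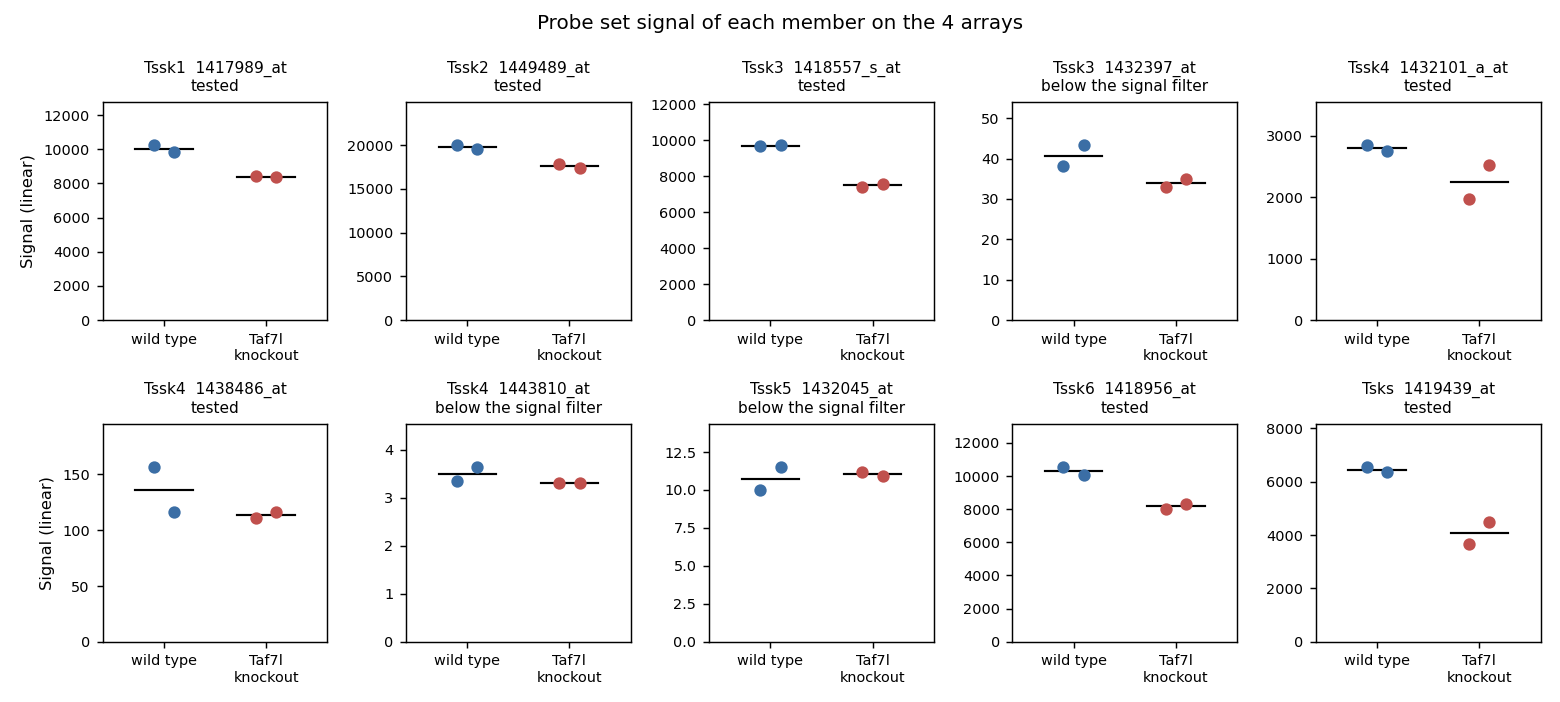
Linear probe set signal (y axis, from 0, a scale of its own in each panel) of the 10 member probe sets on 2 wild type arrays (blue points) and 2 Taf7l knockout arrays (red points). Black lines are group means. The knockout points lie below the wild type points for Tssk1, Tssk2, Tssk6, Tsks and the brightest probe sets of Tssk3 and Tssk4, and Tssk5 is near 11 on all arrays.

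Tssk3 encodes a kinase of spermatids that Pdpk1 can activate in vitro and that mice need for sperm shaping and fertility. Its bright probe set had signals of 9660.3 and 9717 in wild type and 7401 and 7580.2 in the knockout. The groups did not overlap, and the arrays within each genotype lay close together. The mean fell from 9688 ± 39.8 to 7491 ± 127 (SD, n = 2 each), to 77.3% of wild type (log2 −0.37, SE 0.050, limma adjusted p = 0.049). The p lay just inside the threshold. It was 0.071 after quantile normalization, 0.051 with a robust prior, 0.094 without the variance trend and 0.16 with no signal filter, and it rose to between 0.085 (without knockout replicate 2) and 0.353 (without wild type replicate 1) with any 1 array left out. This probe set is of the type ending in _s_at, which can match more than 1 transcript. The other Tssk3 probe set lay below the filter, at 38.2 and 43.3 in wild type and 32.8 and 34.97 in the knockout, where signal is mostly background.

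Tsks, the shared substrate, had the largest difference among the members. The wild type arrays had signals of 6547 and 6350.0, and the knockout arrays 3663 and 4491. Both knockout arrays were well below wild type, but they also differed from each other, by 0.29 on the log2 scale against 0.04 between the wild type arrays. The means were 6448 ± 139 and 4077 ± 585, a log2 difference of −0.67 (SE 0.11, 95% interval −0.94 to −0.40, limma adjusted p = 0.053). Tsks thus missed the threshold that Tssk3 met, with the larger difference of the pair. Of all measured genes, 1.23% had a log2 difference as low as that of Tsks or lower.

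Tssk6, the kinase linked to chromatin packing, was at 10533 and 10070.0 in wild type and at 7996 and 8338 in the knockout. The groups were separated by more than the gap within either of them. Its means of 10301.5 ± 327 and 8167 ± 242 gave a log2 difference of −0.335 (SE 0.055, limma adjusted p = 0.055), which missed the threshold. After quantile normalization it was −0.22 (limma adjusted p = 0.091).

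Tssk1 and Tssk2 act on Tsks and are found near the chromatoid body and the base of the flagellum. Tssk1 had signals of 10226 and 9818 in wild type and 8425 and 8361 in the knockout (log2 −0.26, SE 0.051, limma adjusted p = 0.069). Tssk2 had 19975 and 19551 in wild type and 17882 and 17411 in the knockout (log2 −0.16, SE 0.046, limma adjusted p = 0.11). Groups did not overlap for either gene, and neither passed the test. After quantile normalization the differences were −0.14 for Tssk1 and −0.10 for Tssk2 (limma adjusted p of 0.21 and 0.31). The Tssk2 difference was the smallest among the 6 measured genes. As these kinases are close relatives, the probes of one may in part bind the transcript of the other, which was not tested here.

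Tssk4 encodes a kinase that phosphorylates the outer dense fibre protein Odf2 and the transcription factor Creb1. Its brightest probe set was at 2839 and 2754 in wild type and at 1961 and 2526 in the knockout. Knockout replicate 1 lay furthest from wild type. The means were 2797 ± 60.1 and 2243 ± 399.8 (log2 −0.33, SE 0.13, limma adjusted p = 0.20), which did not pass, and the difference was −0.15 without knockout replicate 1, −0.51 without knockout replicate 2 and −0.19 after quantile normalization. A second tested probe set was far dimmer, at 157 and 116 in wild type and 111 and 116 in the knockout, with overlapping groups (log2 −0.25, limma adjusted p = 0.41). The deposited signal there is identical in replicate 2 of both genotypes, and the sources used here do not say how that arose. Identical signals also occur elsewhere, as at a Mark4 probe set (99.39 in replicate 2 of both genotypes). A Kit probe set was at 233.474 in both wild type replicate 2 and knockout replicate 1. The difference at this dim Tssk4 probe set was −0.03 without wild type replicate 1 and −0.46 without wild type replicate 2. The dimmest lay at 3.34 and 3.63 in wild type and 3.30 and 3.31 in the knockout, under the filter.

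Tssk5, the member about which least is known, was not measurable here. Its single probe set had signals of 9.99 and 11.5 in wild type and 11.2 and 10.9 in the knockout, far under the filter. It is left out of the counts of measured genes and of the median.

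**Figure D2:**
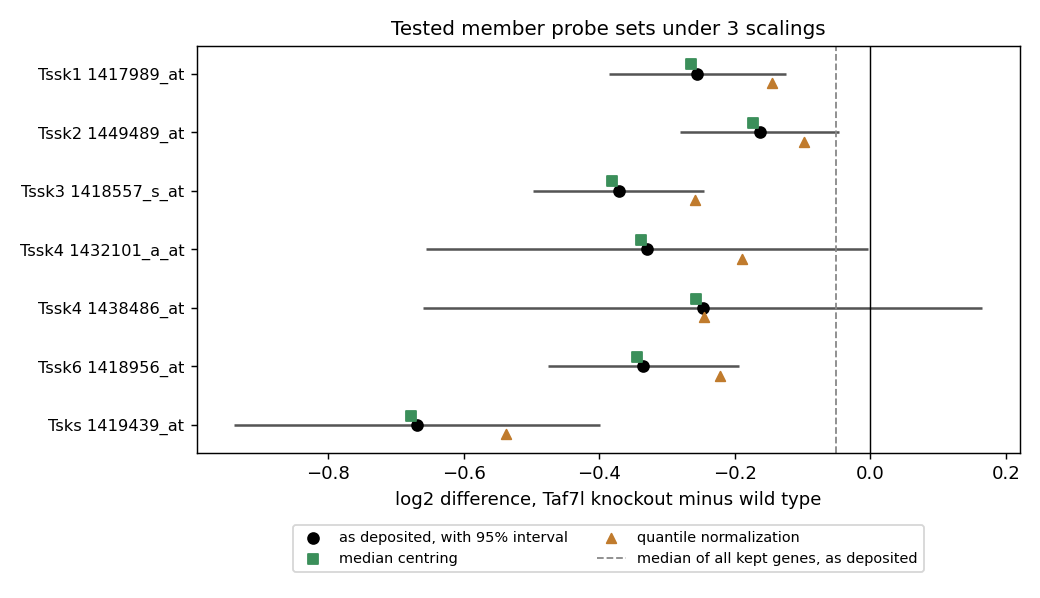
Log2 difference of mean signal, knockout minus wild type (x axis), of the 7 tested member probe sets, as deposited (black, with the 95% interval from limma) and after median centring (green) or quantile normalization (orange). The dashed line is the median of all kept genes, −0.05, and all symbols lie below 0, with the quantile-normalized ones nearest to it.

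The size of these differences depended on the scaling. The median log2 difference of the 6 genes was −0.34 when each array was centred on its median signal and −0.21 after quantile normalization. No member turned direction under either. Quantile normalization moved the median of all measured genes from −0.05 to 0.00. The knockout arrays were dimmer at the bright end of the scale: the 99th percentile of signal was 16601 and 16405 in wild type and 15270.0 and 15835 in the knockout. Bright genes as a whole differed in the same direction. Of the 2019 measured genes with a mean signal in the range of the members, 2520.2 to 18705, 75.8% were lower in the knockout, 59.3% had groups that did not overlap in that direction, and their median log2 difference was −0.13, which became −0.02 after quantile normalization. The part of the scaling in the members' differences was not tested further.

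**Figure D3:**
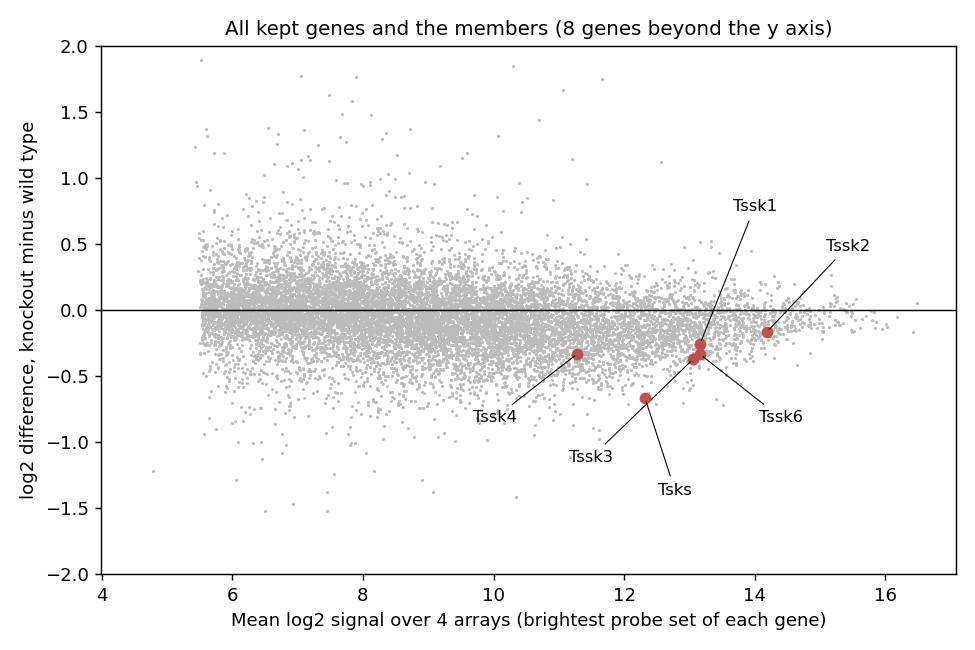
Log2 difference, knockout minus wild type (y axis), against mean log2 signal over the 4 arrays (x axis) for 12241 genes at their brightest kept probe set (grey), with the 6 measured members in red. Grey points drift below 0 towards the bright end, and 8 genes lie beyond the y axis. The members all lie below 0, with Tssk2 nearest to 0 and Tsks furthest from it.

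Ratios between members within an array do not depend on a common scale factor. The log2 ratio of Tsks to the mean of the 5 measured kinases was −0.46 and −0.465 in wild type and −0.95 and −0.73 in the knockout. The groups did not overlap, and the means differed by −0.38. An exact permutation test of 2 arrays against 2 cannot give a p below 0.333, so this difference is given as a description. Tssk2 relative to the other kinases was 1.44 and 1.45 in wild type and 1.68 and 1.53 in the knockout, a difference of 0.16 in the other direction. Of the 15 pairs of measured members, 10 had ratios that did not overlap between genotypes, close to the 58.4% of all pairs of measured genes. All 5 pairs with Tsks, which share that gene, were among the 10. The ratio of Tssk3 to Tssk6 was −0.12 and −0.05 in wild type and −0.11 and −0.14 in the knockout, with overlap. These ratios show unequal differences between probe sets, whose response was not calibrated.

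The members were also set against 5 other spermatid transcripts named in the design. The acrosomal gene Acrv1 was at 12351 ± 473 and 10141 ± 1790 (log2 −0.295), the transition protein gene Tnp1 at −0.17, the fibrous sheath gene Akap4 at −0.15, the outer dense fibre gene Odf1 at −0.11, and the protamine gene Prm1 at 0.06. None of these 5 passed the test (limma adjusted p between 0.11 and 0.64). The values are for the brightest probe set of each gene, and Prm1 had 0.09 and −0.16 at its other tested probe sets. The mean log2 signal of the 6 members relative to the mean of these 5 was −2.36 and −2.37 in wild type and −2.63 and −2.54 in the knockout. This is a difference of −0.22, and it was −0.17 after quantile normalization. It holds for these 5 transcripts only. Prm1, Tnp1, Akap4 and Odf1 were brighter than every member and are on the elongating spermatid marker list described below (median −0.15). Acrv1 is on the round spermatid marker list, whose median of −0.27 lay nearer to the members' −0.33.

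Of 11 genes listed as interactors or regulators, 10 were measured, 7 of them lower and 3 higher, with a median log2 difference of −0.06 that became 0.01 after quantile normalization. By limma 0 of the 10 passed in either direction, with 2 lower and 1 higher at an unadjusted p under 0.05. Over all measured genes 20.4% were lower and 7.49% higher at that unadjusted threshold, so these counts lie near the background, and the counts of the lists that follow are to be read against the same shares. Tsacc, the cochaperone that activates Tssk6, was at 17852 ± 94.5 and 15990.4 ± 824 (log2 −0.16, limma adjusted p = 0.16). H2ax, the histone whose phosphorylated form depends on Tssk6 in spermatids, was at 1294 ± 175 and 956 ± 31.5 (log2 −0.43, limma adjusted p = 0.097). The chaperone gene Hspa8 was at 9154 ± 184 and 11215 ± 908 (log2 0.29, limma adjusted p = 0.089), and the dimmest of its 4 probe sets was at −0.10. Odf2, the Tssk4 substrate, had −0.06 at its brightest probe set and between −0.51 and −0.06 at its other 4, none of which passed (smallest limma adjusted p = 0.054).

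Of 16 other kinases listed for spermatids and spermatocytes, 15 were measured and 14 were lower, with a median of −0.15 (−0.03 after quantile normalization). By limma 0 passed, with 6 lower and 0 higher at an unadjusted p under 0.05. Tesk1, a testis kinase that acts on cofilin, was at 7300.4 ± 139 and 5762 ± 328 (log2 −0.34, limma adjusted p = 0.063). Cdk16, a cyclin-dependent kinase needed for sperm maturation, had −0.45 at its brightest probe set and −0.03 at each of the next 2. Stk33 had −0.21. Of the 17 kinases listed as AMPK-related, which include Stk11, 14 were measured and 11 were lower, with a median of −0.15 (−0.04 after quantile normalization). By limma 0 passed, with 1 lower and 0 higher at an unadjusted p under 0.05. Nuak2 had −0.31 from a wild type mean of 94.5, and Hunk −0.15. Prkaa1, a catalytic subunit of AMPK, had 0.345 from a wild type mean of 65.6, near the filter. Mark3 is on both kinase lists.

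Structures in which the members work were represented by 3 lists. In spermatid chromatin condensation, 10 of 12 measured genes were lower (median −0.16, and −0.10 after quantile normalization). By limma 0 passed, with 7 lower and 0 higher at an unadjusted p under 0.05. The high mobility group gene Hmgb4 had −0.22 and Prm3 −0.29. Prm1, Prm2, Tnp1, Tnp2 and Spem1 are on this list and on the elongating spermatid marker list, so the counts of these lists are not independent. Of the genes of the sperm centriole, annulus and flagellar base, 11 of 12 were lower (median −0.13, and −0.04 after quantile normalization). By limma 0 passed, with 3 lower and 1 higher at an unadjusted p under 0.05. Spatc1, which encodes the centrosomal protein speriolin, was at 4149 ± 105 and 2799 ± 326 (log2 −0.57, limma adjusted p = 0.055). Poc1b, a centriole gene, had 0.23 at its brighter probe set and −0.42 at the other. Akap4 is also on this list. Chromatoid body genes had a median of −0.03, with 7 of 10 lower, and 0.06 after quantile normalization. By limma 0 passed, with 1 lower and 2 higher at an unadjusted p under 0.05. Nanos1 had −0.59 from a wild type mean of 74.2, near the filter, while Tdrd1 had 0.33 and Piwil2 0.17.

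**Figure D4:**
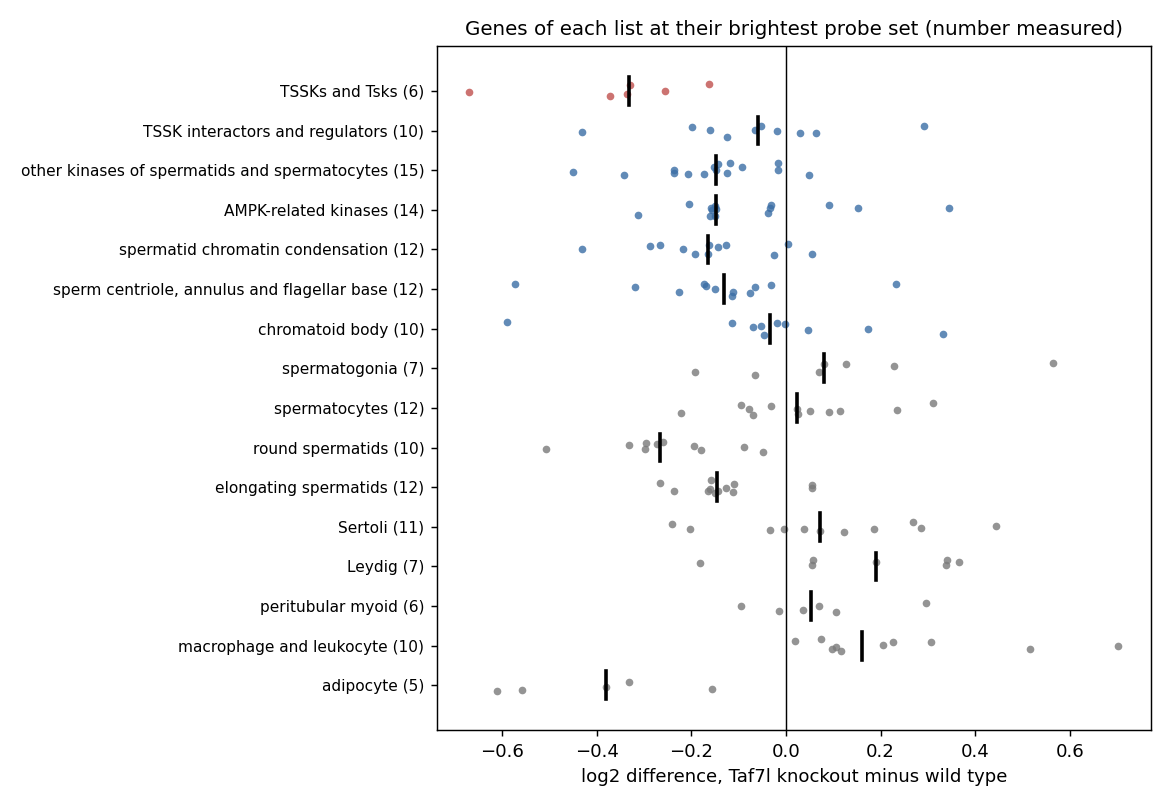
Log2 difference, knockout minus wild type (x axis), of each measured gene at its brightest probe set, for the members (red), the 6 pathway lists (blue) and the cell type marker lists with at least 5 measured genes (grey). Black bars are medians. The members' median is −0.33, round spermatid markers are at −0.27, and leukocyte and Leydig markers are at 0.16 and 0.19.

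Of the cell type markers on all lists, limma called 1 gene, in the Leydig list. The lists are described by counts and medians. These are to be read against all measured genes, of which 60.7% were lower as deposited (median −0.05) and 50.4% after quantile normalization. Among measured genes in the members' signal range 75.8% were lower as deposited. All 10 measured round spermatid markers were lower (median −0.27, and −0.13 after quantile normalization), and their summed signal was 66554 to 69048 in wild type and 54287 to 62910.1 in the knockout. Of 12 elongating spermatid markers, 10 were lower (median −0.15, and −0.09 after quantile normalization, summed signal 539241 to 555929 and 502954 to 520594). Spermatocyte markers (7 of 12 higher, median 0.02, and 0.08 after quantile normalization, summed signal 71149 to 73517 and 69466 to 77669) and spermatogonial markers (5 of 7 higher, median 0.08, and 0.13 after quantile normalization, summed signal 1791 to 1866 and 1931 to 2067) did not share this direction. On the somatic side, 7 of 11 Sertoli markers were higher (median 0.07, and 0.13 after quantile normalization, summed signal 58620.0 to 61494 and 71839 to 74508). Most of these Sertoli sums came from the bright genes Clu (means 33614 and 40535) and Ctsl (13515 and 18388). Of the 11 Sertoli markers, 4 were lower. Leydig markers were higher for 6 of 7 (median 0.19, and 0.29 after quantile normalization, summed signal 18789 to 18856 and 22707 to 23383), and Cyp17a1, a steroid hydroxylase gene, passed the test (log2 0.34, limma adjusted p = 0.0496). Leukocyte markers were higher for 10 of 10 (median 0.16, summed signal 2945 to 3150 and 3361 to 3759). The part of cell makeup in the kinases' differences was not tested, and in whole testis fewer spermatids and less of these transcripts per spermatid cannot be told apart. The actin control's 3′ to 5′ signal ratio was 2.09 and 1.999 in wild type and 2.42 and 2.18 in the knockout, and its part was not tested either.

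Wild type replicate 2 stood apart for adipocyte markers, with a summed signal of 4114 over 5 genes against 941, 1039 and 1748 on the other arrays, and for 4 epididymis markers, with 812 against 388, 361 and 347. Without that array the members' median difference was −0.36. All 6 genes then had the knockout arrays below the remaining wild type array, which follows from their groups being apart with every array in.

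By Euclidean distance over the 4 arrays, after subtracting each gene's wild type mean, 5 of 12235 other genes lay nearest to the mean of the members. These were Gm9 (0.013), Tesk1 (0.016), the Polycomb gene Phc1 (0.018), the proacrosin-binding protein gene Acrbp (0.025) and the endocytic recycling gene Ehd1 (0.026), with the distance in log2 units in brackets. Their log2 differences ran from −0.37 (Ehd1) to −0.34 (Tesk1), and none passed the test (limma adjusted p between 0.055 and 0.11). That these differences lie near the mean of the members follows from how the genes were chosen.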

How the data were processed

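Per the labels, RNA from testis was extracted, biotin-labelled and hybridised to Affymetrix arrays. Per the submitters' processing notes, the authors made the deposited intensity of each probe set with MAS5. Its version and scaling target are not given in the sources used here. Gene symbols came from the platform annotation and were updated by gene ID in RefSeq (GRCm38.p6), where 34741 of 34945 probe sets with 1 symbol matched. The 932 probe sets with several symbols were left out of the members and of all values per gene. Those that reached the signal filter stayed in the test over all probe sets.

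Intensities were taken to log2 with a pseudocount of 0 and no further normalization. Probe sets with a mean signal at or above the median (45.8) were tested in limma 3.58.1 (R 4.3.3; lmFit, eBayes with a variance trend), two-sided, with no term besides genotype. The fit had 2 residual and 3.17 prior degrees of freedom. Lists are described at each gene's brightest kept probe set. The script was tested on simulated data. Named genes were the members, Taf7l, 5 spermatid transcripts, on each pathway list up to 3 genes with the smallest p, and the 5 nearest genes. Odf2, Cyp17a1, Clu, Ctsl, Mark4, Kit and second probe sets were named after their values were seen. Genes shared between lists were named as well. The members and lists were chosen with earlier results of these data known. Alternatives were other scalings, offset, filters, variance priors, the replicate block, probe set choices and leaving out each array.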

Additional observations from a re-analysis of the deposited data

How the results depend on the processing

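All 6 measured members stayed lower in the knockout, with groups apart, under every alternative in which they were measured. Leaving out an array, adding an offset or changing the filter cannot bring separated groups together. Only the scalings and the choice of probe sets could have changed this count. The median difference moved to −0.21 after quantile normalization and ran from −0.38 to −0.28 with 1 array left out. The calls were less stable. For Tssk3 the call was lost after quantile normalization (−0.26, limma adjusted p = 0.071), with no filter (−0.37, 0.16), without the variance trend (−0.37, 0.094), with a robust prior (−0.37, 0.051) and with any 1 array left out (−0.39 to −0.35, 0.085 to 0.353). Tssk3 was not measured with single-transcript probe sets. The call of Taf7l was also lost with no filter (limma adjusted p = 0.065) and with any 1 array left out. The losses in those settings were thus not particular to Tssk3. Tsks and Tssk6 passed after median centring (−0.68 and −0.34, limma adjusted p of 0.046 and 0.047), with the 75th percentile filter (−0.67 and −0.335, 0.0069 and 0.012) and with 1 probe set per gene (−0.67 and −0.335, 0.035 and 0.038), and Tssk1 with the 75th percentile filter (−0.26, 0.024). The replicate numbers do not pair the arrays by any label, and deviations of same-numbered arrays correlated at 0.03. With the replicate number as a block Tsks passed (−0.67, limma adjusted p = 0.047), Tssk3 stayed at 0.0498 and 541 probe sets were called.

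Over all probe sets, limma called 312 as deposited, 148 after quantile normalization, 646 with median centring, 36 without the variance trend, 2375 with the 75th percentile filter and 806 with 1 probe set per gene. It called 0 with no filter (6192 at an unadjusted p under 0.05) and 0 whichever array was left out (3084 to 5500 unadjusted), where the fit takes the spread from the other genotype. The members' difference relative to 5 spermatid transcripts, −0.22, moved to −0.17 under quantile normalization and −0.16 with no filter, which adds Tssk5. The causes were not tested.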
